A study of Mus musculus with 6 samples.

Results

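The genes described here carry chromosomes through mitosis: kinesin motors, centromere and kinetochore proteins, condensin subunits, spindle checkpoint proteins and the kinases and ubiquitin enzymes that time the process. They were taken by symbol (names beginning with Kif, Cenp, Ncap, Aurk, Bub, Spc2, Nuf2, Ndc80, Plk1, Plk4 or Mad2l, plus 12 single genes such as Cdc20, Top2a and Mki67). The rule uses no measured value, but the members were chosen with earlier results of these data known. It gave 69 of the 7101 genes in the deposited expression table, out of 99 protein-coding mouse genes whose RefSeq symbol meets the same rule. The other 30, among them Kif5b, Kif2a, Cenpc1 and Ncaph2, were not analysed here. By textbook role 55 of the 69 act in cell division and are called mitotic members below. The remaining 14 are kinesins of axonal transport, cilia or other tasks, which share the motor and the name but not the role.

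RNA-seq had been made from C57BL/6N mice at E12.5 (embryonic day), with 3 libraries from wild type and 3 from lnc956 knockout (a deleted long noncoding RNA), all with source given as embryo. No other allele, treatment or age is named, and the labels do not say whether a library is 1 embryo or a pool, so each p-value reflects only how these libraries vary, which may be technical. Values were read as FPKM (the header names no unit), fragments scaled to transcript length and to the mapped total of the library, so levels of different genes can be compared per length. Read depth is unknown.

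At metaphase each pair of sister chromatids is held at its centromere by kinetochores, protein assemblies that grip spindle microtubules. The spindle checkpoint holds back the anaphase-promoting complex, a ubiquitin ligase, until every kinetochore is attached, and condensin compacts the chromosomes beforehand. Most of these genes are transcribed late in the cell cycle, so in a tissue their transcripts mark dividing cells. Many of their promoters carry a cell cycle genes homology region (CHR), a short element bound by the MuvB protein complex, which represses them in resting cells and, with B-Myb and FoxM1, activates them before mitosis.

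The labelled tissue and its markers did not match in the knockout libraries. The 9 erythroid markers in the table summed to 29154, 21120 and 20941 FPKM in the wild-type libraries and to 202, 645 and 819 in the knockout libraries, always in the order of replicates 1, 2 and 3. The 9 neuron markers summed to 819, 776 and 800 FPKM in wild type and to 21.4, 6.00 and 12.4 in knockout, and the 6 neural progenitor markers to between 357 and 435 and to between 1.87 and 4.86. The 9 muscle markers had a median of 2.23% of wild type and the 5 cartilage markers 2.36%. Pax6 was at 0 in knockout replicates 2 and 3, and Sox3 and Nefl were at 0 in replicate 1. In contrast the 15 placenta and trophoblast markers summed to between 4.95 and 9.24 FPKM in wild type and to 40595, 17055 and 17390 in knockout, the 10 decidua markers to between 66.4 and 76.5 and to between 8155 and 9203, and the 8 uterine natural killer cell markers to between 0.930 and 3.05 and to between 7531 and 18903. Most of the decidua sum in knockout was Prl8a2, at 7136, 6609 and 6097 FPKM in replicates 1 to 3. Of the 10 decidua markers, 9 had every knockout value above every wild-type value, as did 3345 of the 7101 genes of the table. Among these 9, Bmp2 and Wnt4 stood at only 188% and 147% of wild type. The remaining marker, Igfbp1, was at 0.976, 0 and 21.9 FPKM in knockout. Gcm1, a trophoblast transcription factor, was at 0 in knockout replicates 1 and 2. Tissue makeup and genotype therefore cannot be told apart in any comparison below, and in such bulk samples fewer dividing cells and less RNA per cell cannot be told apart either.

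The table is itself a selection. Of its genes 3458 had a lower knockout mean, and 99% of these stood at or below 34.9% of the wild-type mean. Another 3643 had a higher mean, and 99% of these were at or above 142.8%. Few genes between those edges are in the table, so the counts below describe the genes listed and not the 30 others that meet the rule.

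The 100 bases before the transcript start are shown here for 8 genes, to set promoters that hold the CHR beside one that does not. They are from RefSeq on GRCm38.p6, 5′ to 3′ on the strand of the gene, with capitals marking each CHR core (TTTGAA or its complement TTCAAA) and each CCAAT box (CCAAT or its complement ATTGG), another element common in mitotic promoters. The 8 genes were picked as examples and do not show how common the core is. Of the 51 mitotic members with a promoter entry, 17 lacked it from 250 bases before to 50 after the start, among them Cenpm. Ube2c, Cdc20, Kif11, Top2a, Ncapg and Kif15 were among the members that fell, Bub3 is a checkpoint gene at a higher share of wild type, and Kif5c is a neuronal transport kinesin. In order, the windows are chr2:164769829-164769928 (plus strand), chr4:118437344-118437443 (minus), chr19:37376282-37376381 (plus), chr11:99024190-99024289 (minus), chr5:45669825-45669924 (plus), chr9:122950981-122951080 (plus), chr7:131560270-131560369 (plus, the first of 2 starts) and chr2:49619186-49619285 (plus).
Ube2c: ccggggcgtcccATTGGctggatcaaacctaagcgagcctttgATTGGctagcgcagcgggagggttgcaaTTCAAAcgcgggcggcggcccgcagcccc
Cdc20: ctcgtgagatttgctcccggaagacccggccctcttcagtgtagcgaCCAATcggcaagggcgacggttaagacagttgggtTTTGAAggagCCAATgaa
Kif11: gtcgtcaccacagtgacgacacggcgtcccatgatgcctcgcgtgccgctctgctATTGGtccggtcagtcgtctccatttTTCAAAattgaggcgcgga
Top2a: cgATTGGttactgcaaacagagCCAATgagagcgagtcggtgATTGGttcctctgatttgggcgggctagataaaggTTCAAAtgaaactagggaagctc
Ncapg: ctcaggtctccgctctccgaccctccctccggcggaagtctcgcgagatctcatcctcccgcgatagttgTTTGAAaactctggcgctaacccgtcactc
Kif15: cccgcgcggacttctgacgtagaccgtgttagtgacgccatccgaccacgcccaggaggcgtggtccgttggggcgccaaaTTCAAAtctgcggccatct
Bub3: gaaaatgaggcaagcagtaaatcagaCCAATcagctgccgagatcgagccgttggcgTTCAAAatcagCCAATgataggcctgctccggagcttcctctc
Kif5c: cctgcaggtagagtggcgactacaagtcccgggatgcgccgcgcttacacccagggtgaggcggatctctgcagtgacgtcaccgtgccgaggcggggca

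Of the 67 members tested (Kif6 and Kif9 were under the minimum of 1 FPKM in 3 libraries), 64 were lower in knockout and 3 were higher by limma with Benjamini-Hochberg adjustment over all 6487 genes tested. That every member passed is no result about them, since 96.4% of all genes tested passed. The direction was uneven: 49.2% of all genes tested were lower and 47.2% higher, whereas all 55 mitotic members were lower, and the 3 members that rose were all non-mitotic kinesins. The median log2 change, knockout minus wild type on the log2(FPKM + 1) scale, was −2.61 over the 67 members and 0.38 over all genes tested. The median over all genes spans genes that fell and genes that rose, so it does not give the usual size of a fall. Trimmed-mean rescaling moved these medians to −2.32 and 0.65, and quantile normalization to −2.32 and 0.01. Counted by libraries without overlap, 65 of the 69 members had every knockout value below every wild-type value and 4 had every knockout value above, against 48.5% of the table lower and 95.6% without overlap in either direction.

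**Figure D1:**
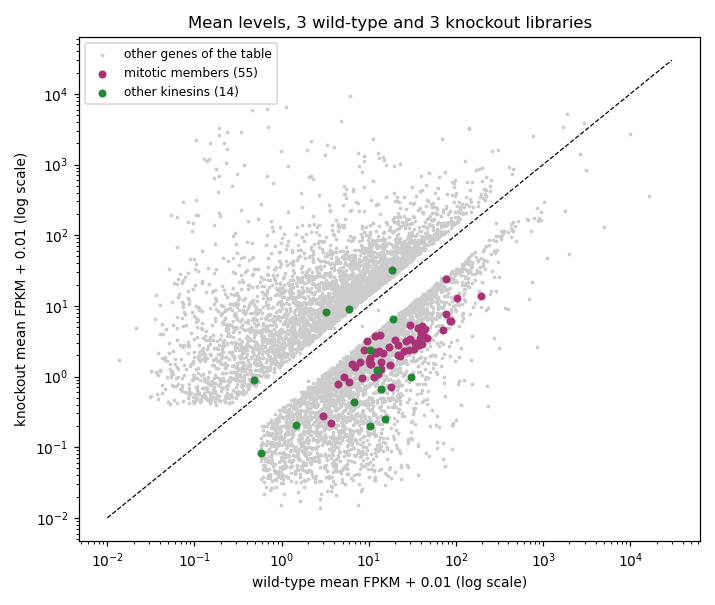
Mean FPKM in the 3 knockout libraries (vertical) against the mean in the 3 wild-type libraries (horizontal), both on log scales with 0.01 added. Grey points are other genes of the table, purple points the 55 mitotic members and green points the 14 other kinesins, and the dashed line marks equal means. All mitotic members lie below the line, 4 green points lie above it, and an empty band around the line shows that genes with small differences are not in the table.

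Mitotic members stood at a median of 11.4% of their wild-type mean, from 3.93% (Cenpm) to 33.2% (Ncapd3). Over the 3458 genes of the table with a lower knockout mean the median was 15.1%, and 99% of them stood at or below 34.9%. Of the 55, 22 were under 10% and 7 were at 20% or more. The knockout libraries were not alike. The mitotic median was 11% in replicate 1, 3.68% in replicate 2 and 18.5% in replicate 3, against 12.9%, 12.8% and 17.3% over those 3458 genes. Of the 55 mitotic genes, 53 had their lowest knockout value in replicate 2 and their highest in replicate 3. The exceptions were Cenpl and Cenpv. None of the 14 other kinesins showed that order, and among the 3458 genes of the table with a lower knockout mean 31.5% did. Of the 15 placenta and trophoblast markers present, 3 had that order (20%), close to the 21.3% among all 7101 genes of the table. The 3 were Ascl2, Elf5 and Syna, of which Elf5 and Syna were under the filter and not tested. Ascl2, a trophoblast progenitor gene, was at 4.95, 1.21 and 15.6 FPKM in knockout replicates 1 to 3, Syna at 3.38, 0.653 and 13.8, and Elf5 at 1.29, 0.327 and 1.83. Other markers on that list differed, such as Plac1 at 211, 7.48 and 90.3 FPKM and Hand1 at 193, 89.2 and 112. The summed uterine natural killer markers had another order, with 7531, 18903 and 12286 FPKM and the highest value in replicate 2. The part of any of these tissues in the mitotic values was not tested.

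**Figure D2:**
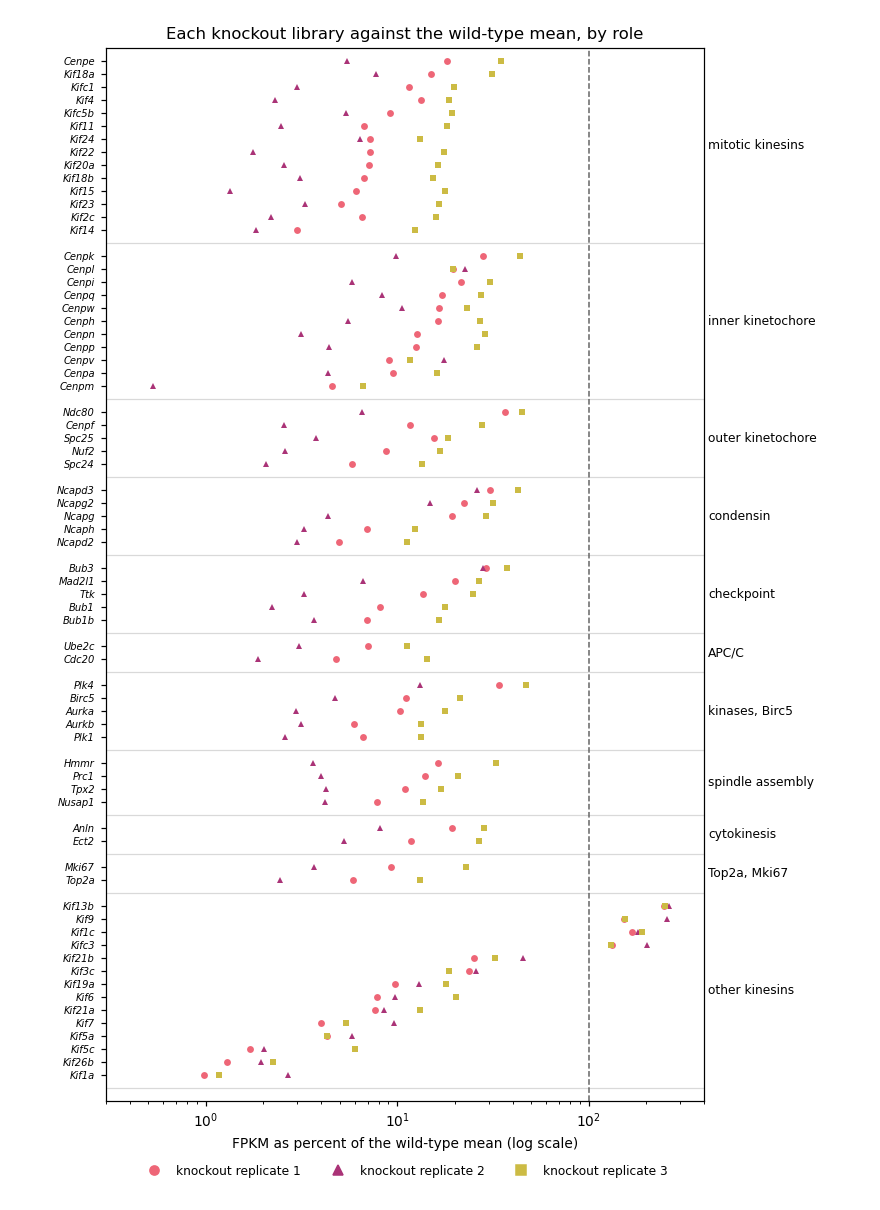
FPKM of each of the 69 members in knockout replicates 1 (circles), 2 (triangles) and 3 (squares), as a percent of the wild-type mean (dashed line at 100) on a log scale, with genes grouped by role. In the mitotic groups the triangle is leftmost and the square rightmost in 53 of 55 rows, whereas the 14 kinesins at the bottom show no such order and 4 of them lie right of the line.

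The mitotic kinesins fell together. Kif11, the motor that pushes spindle poles apart, was at 19.4, 25.1 and 31.8 FPKM in wild type and at 1.70, 0.633 and 4.63 in knockout. The groups were far apart, with a knockout mean at 9.13% of wild type (log2 change −3.15, SE 0.44, limma adjusted p = 0.000248). Kif22, a chromosome-arm motor, was at 43.0, 40.4 and 44.9 FPKM against 3.09, 0.758 and 7.53 (log2 change −3.47, SE 0.51, limma adjusted p = 0.000347), the highest of the 14 in wild type. Kif14, a midbody motor of cytokinesis, fell from 3.71, 3.39 and 4.0 FPKM to 0.110, 0.0681 and 0.460, or 5.75% of wild type. Kif24, a centriolar kinesin placed in this group, was at 2.53, 2.88 and 3.43 FPKM against 0.213, 0.189 and 0.388. On the log2(FPKM + 1) scale these low genes show smaller changes (−1.97 and −1.64) than their percentages do. Kif2c, which depolymerises microtubules at centromeres, Kif23, of the central spindle, and Kif20a, of the midzone, stood at 8.22%, 8.29% and 8.71% of wild type. The upper end of the group was held by Kif18a (17.9%), which dampens chromosome movements, and Cenpe (19.5%), a kinetochore motor. Kifc1 and Kifc5b are close copies whose reads may be shared, and stood at 11.4% and 11.3%.

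The transport, ciliary and other kinesins spread far more widely, from 1.61% to 253% of wild type. Kif1a, which carries synaptic vesicle precursors, was at 16.4, 15 and 14.1 FPKM in wild type and 0.149, 0.406 and 0.177 in knockout (log2 change −3.70, SE 0.15, limma adjusted p = 8.68e-07). Kif5c, a neuronal kinesin heavy chain, went from 28.0, 30.5 and 31.7 FPKM to 0.511, 0.606 and 1.80 (log2 change −4.03, SE 0.25). Kif5a, its close relative, stood at 4.79% of wild type. The 9 neuron markers had a median of 0.436% of wild type. Their sum was lowest in knockout replicate 2, where Kif1a and Kif5a had their highest knockout values, but the order of that sum followed Tubb3. Tubb3 was at 17.8, 0.902 and 8.99 FPKM in knockout replicates 1 to 3, and Gap43 at 3.11, 4.31 and 2.36. Of the 9 markers, 5 had their lowest knockout value in replicate 2. The part of neurons in the Kif1a, Kif5c and Kif5a values was not tested. Kif26b, a kinesin of kidney and limb mesenchyme, fell from 10.7, 9.86 and 10.1 FPKM to 0.132, 0.199 and 0.229 (log2 change −3.24, SE 0.12). Kif7, a ciliary regulator of Hedgehog signalling, stood at 6.34%, Kif21a, an axonal kinesin, at 9.79%, and Kif3c and Kif21b at 22.8% and 34.2%. In 8 of the 14, among them Kif21b, Kif1a and Kif7, knockout replicate 2 was the highest of the 3 knockout libraries, where mitotic kinesins had their lowest value. Kif19a, a ciliary kinesin near the filter, stood at 13.6%, and Kif6, not tested, at 12.6%.

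The members that rose were Kif13b, Kif1c and Kifc3. Kif13b, which carries membrane cargo, was at 3.60, 2.77 and 3.30 FPKM in wild type and 7.94, 8.42 and 8.10 in knockout (log2 change 1.12, SE 0.15, limma adjusted p = 0.00017). Kif1c, a widely expressed motor for vesicles and RNA, was at 20.7, 16.9 and 17.0 FPKM against 30.5, 32.8 and 34.5 (log2 change 0.81, SE 0.14, limma adjusted p = 0.000831). Kifc3, a minus-end motor found at cell junctions, was at 6.18, 5.75 and 5.68 FPKM against 7.77, 11.8 and 7.69, with knockout replicate 2 well above the other two (log2 change 0.53, SE 0.19, limma adjusted p = 0.028). Its call ended without any 1 of the wild-type replicates (adjusted p = 0.0598, 0.0848 and 0.0862 without replicates 1, 2 and 3), though its groups did not overlap. Kif9, not tested, was at 0.540, 0.445 and 0.418 FPKM against 0.715, 1.20 and 0.727.

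**Figure D3:**
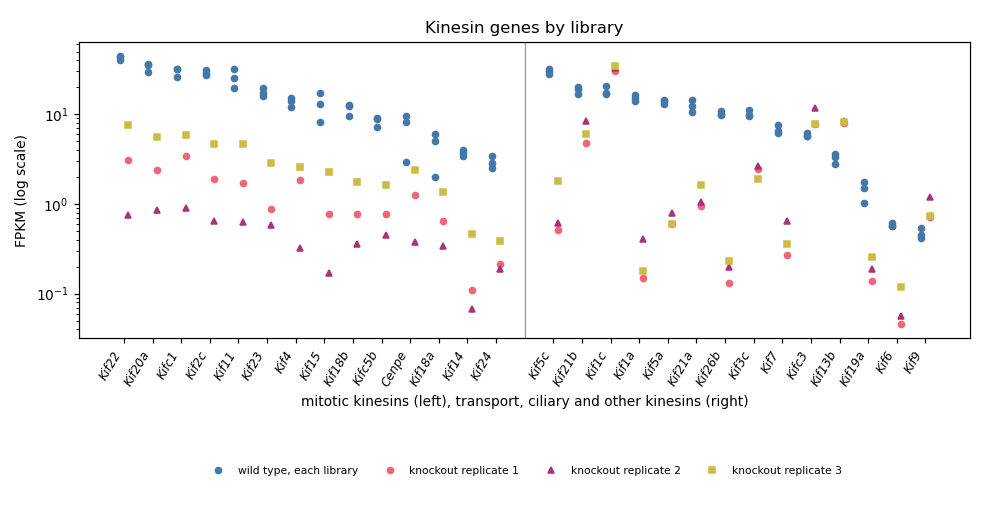
FPKM on a log scale for each kinesin gene and library, with mitotic kinesins left of the vertical line and all others right of it, each set ordered by wild-type mean. Blue circles are the 3 wild-type libraries and the other symbols are the 3 knockout libraries. Knockout replicate 2 (triangles) is the lowest point of every mitotic kinesin and of none of the 14 others, and Kif1c, Kifc3, Kif13b and Kif9 lie above wild type.

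Centromere and inner kinetochore genes were all lower as well, 11 of 11. Cenpm, a subunit of the constitutive centromere-associated network, was at 19.9, 17.5 and 17.0 FPKM in wild type and 0.832, 0.0960 and 1.21 in knockout, or 3.93% of wild type (log2 change −3.54, SE 0.27, limma adjusted p = 1.04e-05). Cenpa, the histone H3 variant that marks the centromere, went from 76.0 ± 2.88 to 7.61 ± 4.51 FPKM (mean ± SD, n = 3 in each group). Cenpl, a network subunit that binds with Cenpn, was at 8.41, 6.98 and 8.24 FPKM against 1.54, 1.78 and 1.55 (log2 change −1.76, SE 0.14, limma adjusted p = 1.43e-05). Its knockout libraries were nearly level, and so apart from those of Cenpn, which ran 2.19, 0.543 and 4.98. Cenpv, which acts in centromere organisation and cytokinesis, was highest in knockout replicate 2 (1.96, 3.79 and 2.54 FPKM). The other members, Cenph, Cenpi, Cenpk, Cenpn, Cenpp, Cenpq and Cenpw, stood between 14.4% and 27.2% of wild type.

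The NDC80 complex, the 4-subunit rod that binds microtubules, fell unevenly among its subunits. Spc24 was at 42.2, 37.2 and 41.6 FPKM in wild type and 2.35, 0.834 and 5.46 in knockout (7.14% of wild type, log2 change −3.60, SE 0.41, limma adjusted p = 9.23e-05). Nuf2 went from 19.3, 21.4 and 23.5 FPKM to 1.86, 0.553 and 3.56 (9.31%). Its partner Ndc80 was at 10.2, 13.7 and 15.9 against 4.85, 0.869 and 5.92, at 29.3% of wild type. Within each library this made Ndc80 9.7%, 12% and 13% of the summed FPKM of the 4 subunits in wild type and 31.5%, 23.0% and 26.4% in knockout. Spc24 changed the other way, from 39.9%, 32.5% and 32.8% to 15.2%, 22.0% and 24.3%. These shares do not depend on library scaling, and neither overlapped between the groups. Cenpf, a large outer kinetochore protein, stood at 14% of wild type and Spc25 at 12.6%.

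All 5 condensin genes, from condensin I and condensin II, were lower to unlike degrees. Condensin I reaches chromosomes after the nuclear envelope breaks down, while condensin II is nuclear throughout the cycle. Of condensin I, Ncapd2 was at 71.0, 64.2 and 78.0 FPKM in wild type and 3.51, 2.13 and 7.98 in knockout (log2 change −3.84, SE 0.36, limma adjusted p = 3.14e-05). Ncaph, the kleisin that closes the ring, was at 33.1, 28.5 and 36.4 FPKM against 2.27, 1.07 and 4.03 (log2 change −3.37, SE 0.31). Their knockout means were 6.39% and 7.52% of wild type. Ncapg, the remaining subunit, stood at 17.6%, nearer to Ncapg2 of condensin II than to Ncapd2 and Ncaph. Of condensin II, Ncapd3 was at 9.23, 8.76 and 10.3 FPKM against 2.88, 2.47 and 4.05 (33.2%), and Ncapg2 stood at 23.0%. The ratio of summed condensin I to condensin II FPKM was 7.77, 7.0 and 7.16 in wild type and 1.89, 1.09 and 2.55 in knockout. The groups did not overlap, and a two-sided exact permutation test gave p = 0.1, the smallest that 3 against 3 allows. This ratio was chosen after the values were seen and lacks Ncaph2, not analysed here. It leans on Ncapd2, which made up 63%, 61.2% and 59.9% of the summed condensin I FPKM in the wild-type libraries.

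All 5 spindle checkpoint genes were lower. Bub1b, which encodes the checkpoint inhibitor BubR1, was at 40.2, 35.1 and 41.7 FPKM in wild type and 2.72, 1.44 and 6.46 in knockout (log2 change −3.29, SE 0.38, limma adjusted p = 9.08e-05). Bub3, its binding partner, which also acts outside mitosis, was at 82.8, 67.3 and 78.4 FPKM against 22.0, 21.4 and 28.6 (31.5% of wild type, log2 change −1.63, SE 0.16, limma adjusted p = 4.28e-05). Its knockout libraries were close to each other, and it had the highest FPKM of the mitotic members in all 3 of them, where Ube2c was highest in all 3 wild-type libraries. Bub1, the checkpoint kinase, stood at 9.35% of wild type, Ttk, the kinase also called Mps1, at 14% and Mad2l1, the Mad2 inhibitor itself, at 17.8%.

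Downstream of the checkpoint, Cdc20 and Ube2c were both lower. Cdc20, the activator of the anaphase-promoting complex that the checkpoint targets, was at 94.5, 80.2 and 89.7 FPKM in wild type and 4.23, 1.64 and 12.6 in knockout (log2 change −3.96, SE 0.53, limma adjusted p = 0.000205). Ube2c, the ubiquitin-conjugating enzyme that serves the complex, had the highest wild-type level of all members, at 206, 183 and 191 FPKM, and was at 13.7, 5.91 and 21.9 in knockout (log2 change −3.88, SE 0.40, limma adjusted p = 4.9e-05). Both stood near 7% of wild type (6.98% and 7.14%), and both promoters are printed above with a CHR core within 30 bases of the start. Exons of Elovl1 overlap Cdc20 and exons of Tnnc2 overlap Ube2c on the opposite strand, and the sources used here do not say whether reads were counted by strand. Such overlaps on the other strand were found for 18 of the 69 members in GENCODE M21.

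Among the mitotic kinases Plk1, which acts from mitotic entry to cytokinesis, was at 51.7, 41.2 and 47.8 FPKM in wild type and 3.10, 1.22 and 6.21 in knockout (log2 change −3.56, SE 0.39, limma adjusted p = 7.39e-05). Aurkb, the kinase of the chromosomal passenger complex, went from 40.1, 32.3 and 39.9 FPKM to 2.24, 1.18 and 5.0, or 7.49% of wild type (log2 change −3.46, SE 0.35, limma adjusted p = 4.63e-05). Its partner Birc5, or survivin, stood at 12.4%, with 11.4, 4.84 and 21.9 FPKM in knockout against 103 ± 3.13 in wild type (SD, n = 3). Aurka, the spindle pole kinase, stood at 10.4%. Plk4, which starts centriole duplication before mitosis, was less lowered, at 9.59, 12.4 and 13.4 FPKM against 4.01, 1.56 and 5.55 (31.5%).

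Spindle assembly factors, cytokinesis genes and the general proliferation markers were lower too. Tpx2, the activator of Aurora A, was at 42.3, 42.6 and 46.6 FPKM against 4.81, 1.85 and 7.41 (log2 change −3.11, SE 0.37, limma adjusted p = 0.000101). Nusap1, which bundles microtubules near chromatin, went from 18.4, 23.1 and 26.5 FPKM to 1.77, 0.948 and 3.09 (log2 change −3.06, SE 0.29, limma adjusted p = 3.15e-05). In both genes every knockout library lay far below every wild-type library. The midzone bundler Prc1 and the hyaluronan receptor Hmmr stood at 12.9% and 17.6% of wild type. Ect2, which activates RhoA at the cleavage furrow, was at 13.0, 13.8 and 17.4 FPKM against 1.74, 0.771 and 3.94 (log2 change −2.44, SE 0.36, limma adjusted p = 0.00035). Anln, the furrow scaffold anillin, was at 11.2, 11.5 and 12.9 FPKM against 2.28, 0.967 and 3.35 (log2 change −2.08, SE 0.29, limma adjusted p = 0.000244). Top2a, which untangles sister chromatids, was at 73.5, 83.3 and 102 FPKM against 5.07, 2.11 and 11.3 (log2 change −3.82, SE 0.46, limma adjusted p = 0.000112). Mki67, whose protein Ki-67 coats mitotic chromosomes, was at 12.9, 30.8 and 37.4 FPKM against 2.50, 0.990 and 6.16 (log2 change −2.80, SE 0.54, limma adjusted p = 0.00152), with wild-type replicate 1 far under the other two.

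That last spread recurred among other members. Wild-type replicate 1 was below 0.5 times the mean of replicates 2 and 3 for 4 mitotic members, Cenpe (0.330), Cenpf (0.347), Kif18a (0.365) and Mki67 (0.377). Across the 67 members with at least 1 FPKM in every wild-type library, this ratio on the log2 scale rose with the GC content of the longest coding transcript (Spearman 0.76, Pearson 0.64), and across 5425 genes of the table less steeply (Spearman 0.50). It also fell with the log2 length of that transcript (Spearman −0.42 over the 55 mitotic members, −0.14 over the 67 and −0.24 over the 5425). Genes share libraries and are not independent, so these are descriptions. Split by GC, the 19 mitotic members between 35.8% and 43.1% GC had a median ratio of 0.730, the 18 between 43.3% and 48.1% a median of 0.867 and the 18 between 48.4% and 61.6% a median of 1.10. Knockout levels as a share of wild type followed GC as well, with medians of 17.6%, 12.8% and 8.32% in the same order. Without wild-type replicate 1 they were 15.3%, 12% and 8.27%. The part of GC content in the differences between members, among them Ncapg against Ncapd2 and Ndc80 against Spc24, was not tested. Ndc80 has 44.1% GC and Spc24 52.9%, Ncapg 39.8% and Ncapd2 54.0%.

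**Figure D4:**
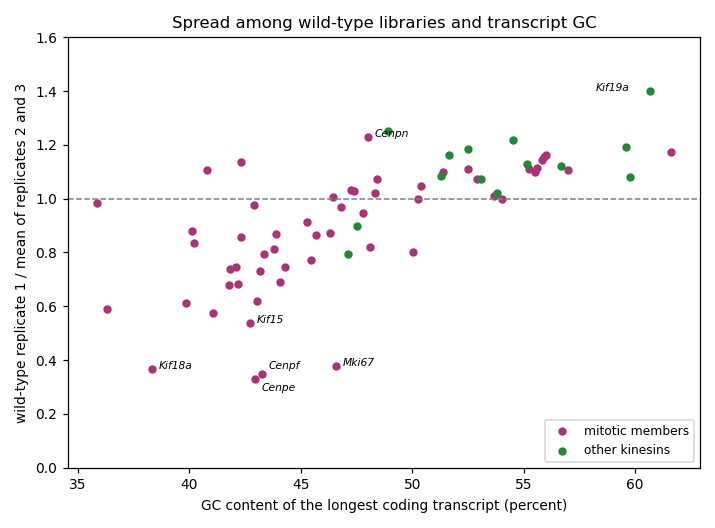
Ratio of wild-type replicate 1 to the mean of wild-type replicates 2 and 3 (vertical) against GC content of the longest coding GENCODE M21 transcript (horizontal) for the 69 members, mitotic in purple and other kinesins in green, with a dashed line at equal levels. Cenpe, Cenpf, Kif18a and Mki67 are lowest at 0.330 to 0.377, and members above 50% GC lie between 0.80 and 1.40.

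Other mitotic genes, from a list of 73 that holds no member, moved in the same direction. Of the 52 present, 51 were tested and 51 were lower, where 49.2% of all genes tested were lower. Their median was 15.7% of wild type, close to the 15.1% over all table genes with a lower knockout mean. By library their median was 6.03% in knockout replicate 2 against 14.8% and 24.4% in replicates 1 and 3. The order of replicates seen in the members held for 45 of the 52. Racgap1, of the central spindle complex with Kif23, stood at 6.89% of wild type, and Foxm1, the transcription factor that activates many of these genes, at 5.74%. Incenp and Cdca8, passenger complex subunits with Aurkb and Birc5, stood at 14.9% and 13.3%. Smc2, the condensin ATPase, was at 7.71, 15.3 and 21.5 FPKM in wild type and 3.56, 1.37 and 4.62 in knockout. Anapc5, a subunit of the anaphase-promoting complex, stood at 35.3%. Of 13 cohesin genes 3 were in the table and all were lower, a count to be read beside the same 49.2%. Cdca5 (sororin) stood at 10.3%, Esco2 at 15.2% and Pds5b at 20.3%.

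In the promoter windows, which run from 250 bases before to 50 bases after a RefSeq start, the CHR core stood out among mitotic members. It was found on either strand in 37 of the 57 windows of the 51 mitotic members with an entry (64.9%, 95% Wilson interval 51.9% to 76.0%, counting error only). The interval treats windows as independent, though windows of the same gene can overlap. Counted by gene, 34 of the 51 held the core (66.7%), against 20.2% of genes over all promoters. Among all 32851 windows 17.9% held it, among windows of table genes with a lower knockout mean 13.6%, and among the 11 windows of other kinesins 2 did. Position differed as well: within 50 bases of the start the core was present in 52.6% of mitotic windows and 4.94% of all windows. The CCAAT box was found in 71.9% of mitotic windows and 37.4% of all windows. Both were present in 54.4% and 6.95%. The ends of the motifs can share a letter where they adjoin, and a match is a description, not a bound site. The other kinesins with a core were Kif1a and Kif26b, and no match, as in the Kif5c window, says only that these letters are absent there. Presence of the core did not separate the members by size of change: the 34 mitotic members with it had a median of 11.4% of wild type (range 5.75% to 33.2%) and the 17 without it 14.4% (3.93% to 31.5%), with no test made.

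**Figure D5:**
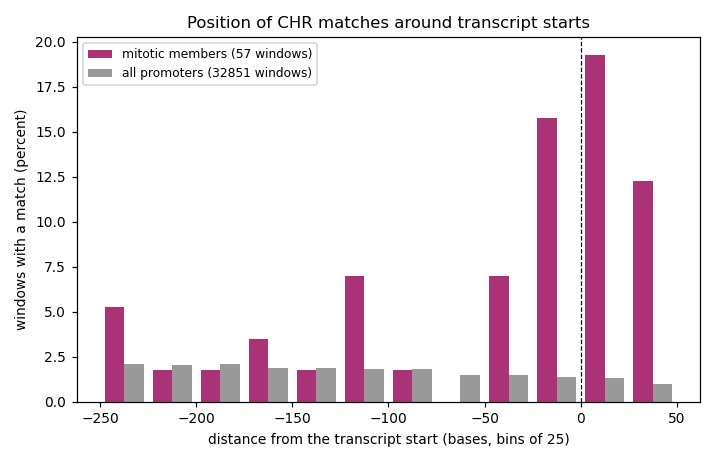
Percent of promoter windows with a CHR match beginning in each bin of 25 bases from 250 bases before to 50 bases after the transcript start (dashed line), for 57 windows of mitotic members (purple) and 32851 windows of all genes (grey). Mitotic windows peak at 15.8% and 19.3% in the bins on either side of the start, where all windows are at 1.38% and 1.31%.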

How the data were processed

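The table gives 6 libraries as FPKM, deposited by the authors. The unit is inferred from the values and from Cufflinks being the quantifier named, since the header names none. How the rows were selected is not stated. TopHat2 2.0.8, Cufflinks 2.1.1 and the builds mm9 and mm10 appear, with no role given, per the submitters' processing notes. Strand and read depth are not given in the sources used here, so no counting interval is possible for FPKM.

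The 6487 of 7101 genes that reached 1 FPKM in 3 or more libraries were tested with limma 3.58.1 (R 4.3.3) on log2(FPKM + 1), trend and robust on, two-sided, Benjamini-Hochberg adjusted, threshold 0.05. All log2 changes are on that scale, which understates low genes; percents of wild type are ratios of mean FPKM. The procedure was checked on simulated data that gave both groups a spread set from the wild-type libraries. It recovered 44% of log2 changes of 0.5 and 96% of log2 changes of 1, and called 15 unchanged genes. Only 50 genes of each size were changed among 6487, whereas 96.4% of genes passed in the data, so these rates may not carry over. The wider relative spread among the knockout libraries, as in Cdc20, was not simulated. An exact permutation test of 3 against 3 cannot go below p = 0.1. The members, roles and marker lists were chosen with earlier results of these data known. Full values are given for the 2 members of smallest p in each role, the 10 largest decreases and increases, and members moving against their role. Other members with per-library values were chosen after their values were seen.

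Transcript GC and overlaps came from GENCODE M21 (GRCm38). Promoter windows came from RefSeq (GRCm38.p6), with 51 of 55 mitotic members and 9 of 14 other kinesins matched. Replicate numbers were not taken to pair the libraries. Alternatives covered pseudocount, filter, scaling, replicate block and leaving out each library.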

Additional observations from a re-analysis of the deposited data

How the results depend on the processing

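The alternatives were run for the counts, the named members, the median percent, the GC split (without wild-type replicate 1) and the CHR share, and none of these reversed. The NDC80 shares, the condensin ratio, the order of the knockout replicates and the other members were not recomputed. The order of members by size of change moved with the setting: Kif5c was at -4.03 and Ube2c at -3.88, but -3.87 and -4.42 under quantile normalization, and Kif1a was at -5.54 and Kif5c at -5.01 with a pseudocount of 0.1. Members lower and higher numbered 64 and 3 with a pseudocount of 0.1 or 5, trimmed-mean rescaling, quantile normalization, or trend and robust off, 65 and 4 without a filter, and 57 and 3 with a minimum of 5 FPKM. Leaving out each library gave 64 lower and 2 to 3 higher, and over all genes 3183 to 3195 lower and 2803 to 3099 higher. Of the other mitotic genes, 50 of 51 tested were lower under quantile normalization and 42 of 42 tested with a minimum of 5 FPKM. The median percent of wild type over members, 11.4, ranged from 7.6 (without knockout replicate 3) to 14.2 (without knockout replicate 2), and the rescaled values gave 14.5 (trimmed mean) and 14.7 (quantile). Of 376 alternative values of named members 373 kept direction and call. The other 3 were Kifc3 without each wild-type replicate, at 0.56, 0.52 and 0.51. The CHR share fell to 54.4% when windows began 100 bases before the start.

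With the replicate number as a block, 64 members were lower and 3 higher, and 3192 and 3038 of all genes. Deviations of same-numbered libraries correlated at -0.055, 0.081 and 0.110. Wild-type replicates 2 and 3 correlated best with the same-numbered knockout library. Wild-type replicate 1 correlated best with knockout replicate 2 (0.049). All these values were small, and the numbers were not taken as a pairing. Depth is unknown, which limits what low FPKM values can show.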
